A study of Mus musculus with 4 samples.

Results

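The 8 genes described here are the alpha-defensins Defa3, Defa5, Defa17, Defa24, Defa27, Defa29, Defa34 and Defa35 of the mouse. They were chosen by their measured UMIs (unique molecular identifiers, 1 per captured RNA molecule): they lead the alpha-defensins of Paneth cells in 1 library, APC-KO replicate 2, so their levels there are a description and support nothing. They are 8 of the 22 genes whose symbol is Defa and a number, and 8 of the 31053 genes in the files. In PANETH cells of that library the lowest of the 8 was Defa34 with 540 UMIs, and the next genes outside were Defa26 with 200 and Defa36 with 188. Defa30, second there with 118165 UMIs, is not among the 8.

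Single-cell RNA was read from TOM+ DAPI- cells sorted from crypts of the mouse duodenum, with 2 libraries per genotype. WT mice carried Atoh1CreER-T2 and R26RTom, a red fluorescent reporter that Cre switches on, and APC-KO mice carried Atoh1Cre, Apcfl/fl and R26RTom as labelled, while the series' design text gives the inducible CreER-T2 for both. Atoh1 drives Cre in the secretory lineage, so the sort set which cells were read, and the floxed Apc alleles are recombined only where Cre acted. All mice received 2 doses of tamoxifen at 1 mg/mL, given 24 h apart, and cells were collected 12 h after the last dose. Strain, age, sex and the number of animals behind a library are not in the labels, so genotype and any difference between the animals or preparations cannot be told apart, and p-values measure only the spread between these libraries.

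The authors' tables kept 4814, 3821, 356 and 6243 cells, under 12 cell type names. Here and below, every series of 4 values is in the order WT replicate 1, WT replicate 2, APC-KO replicate 1, APC-KO replicate 2. Kept cells had a median of between 3973 and 8370 UMIs. APC-KO replicate 1 stood apart: its kept cells held 5.15% of all its UMIs, where this share ran from 37.6% to 50.3% elsewhere. Between 1 and 8 kept barcodes were shared by any pair of libraries. PANETH cells numbered 106, 200, 16 and 274, and PANETH-PRE cells 122, 98, 11 and 602. The name PANETH was checked with Paneth markers: 7 of them summed to between 70349 and 151967 CPM (UMIs per 1000000 UMIs of the cells summed) in PANETH cells, and none was at 0 in all libraries. In APC-KO replicate 1, 10 of the 16 PANETH cells had 0 to 9 Lyz1 UMIs and at most 1.08% Defa UMIs, so the name is not borne out for them. PANETH cells also held goblet markers, which are given with PANETH-PRE cells below.

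Alpha-defensins are small antimicrobial peptides, called cryptdins in mice, that Paneth cells at the crypt base store in granules and release into the lumen. They are made as precursors with a signal peptide and an acidic propiece, and in mice the metalloproteinase Mmp7 cuts the active peptide free. Its fold is held by disulfide bonds between cysteines. Wnt signalling, which Apc restrains, supports Paneth cell maturation and acts on alpha-defensin promoters through TCF factors. Many near-identical gene copies lie side by side, so reads of 1 copy can be counted for another or be discarded.

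All 22 genes lie on chromosome 8 between 21025545 and 21735471 (GRCm38, GENCODE vM21). Defa35 lies at 21065038 to 21065996, at place 3 of the row, and Defa3 (21287409 to 21288377), Defa5 (21297439 to 21298375), Defa27 (21315546 to 21316481) and Defa29 (21325887 to 21327020) follow each other at places 8 to 11. Defa17 (21655780 to 21656735), Defa34 (21665797 to 21666732) and Defa24 (21734494 to 21735471) end the row at places 20 to 22. Defa29 is on the minus strand and the other 7 are on the plus strand. The chemistry reads the 3' end of the transcript, so the counted reads are mostly exonic.

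The end of each coding sequence carries the peptide and shows how close the members are, so it is printed once for each distinct sequence, 5′ to 3′ from the GENCODE transcripts, with the in-frame TGC and TGT codons, which stand for cysteine, in capitals. Bases 181 to 282 of the coding sequence are given for the 7 genes with 282 coding bases, and bases 184 to 351 for Defa29.
Defa24: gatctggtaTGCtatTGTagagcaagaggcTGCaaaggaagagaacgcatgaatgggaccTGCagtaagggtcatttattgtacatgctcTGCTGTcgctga
Defa3 and Defa17: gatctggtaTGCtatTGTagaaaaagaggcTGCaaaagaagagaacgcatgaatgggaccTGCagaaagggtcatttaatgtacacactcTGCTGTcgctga
Defa27: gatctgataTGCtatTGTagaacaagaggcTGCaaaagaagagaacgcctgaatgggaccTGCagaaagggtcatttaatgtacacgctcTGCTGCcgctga
Defa5, Defa34 and Defa35: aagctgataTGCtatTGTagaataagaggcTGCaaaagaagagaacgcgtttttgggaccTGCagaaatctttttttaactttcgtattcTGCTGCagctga
Defa29: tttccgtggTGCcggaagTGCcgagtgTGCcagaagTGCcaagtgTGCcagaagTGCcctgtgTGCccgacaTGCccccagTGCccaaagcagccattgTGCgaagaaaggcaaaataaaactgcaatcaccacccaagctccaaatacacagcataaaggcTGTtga
Defa3 and Defa17 had the same coding sequence over all 282 bases. Defa5, Defa34 and Defa35 were the same over the printed 102 bases and differed from each other by 3 to 5 bases over the whole coding sequence. Defa24 differed from Defa3 at 7 and Defa27 from Defa3 at 5 of the printed 102 bases, whereas Defa5 differed from Defa24 at 25. Defa29 stood apart, with 11 cysteine codons against 6 in each of the others and at most 66.4% coding identity with any of the other 21 genes.

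**Figure D1:**
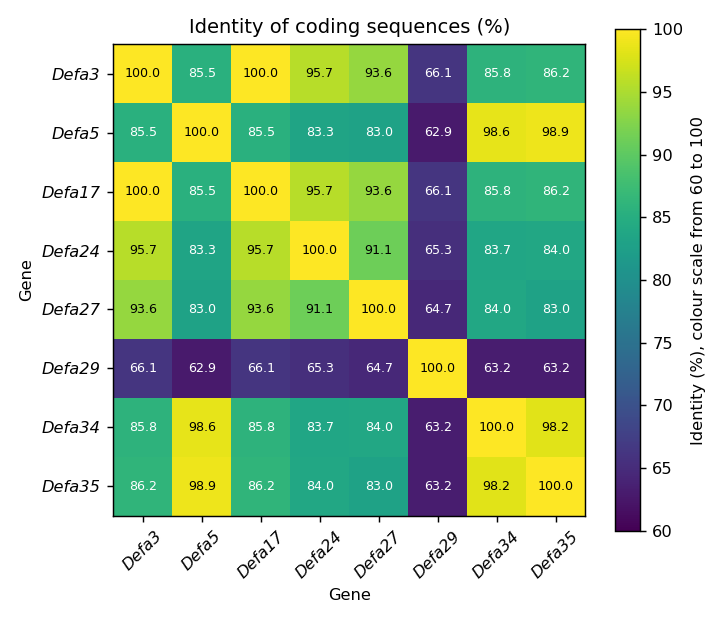
Percent identity of the coding sequences for each pair of the 8 genes (rows and columns are genes, colour from 60% to 100%). Defa3 and Defa17 form 1 block at 100%, Defa5, Defa34 and Defa35 another at 98.2% to 98.9%, and Defa29 is at most 66.1% identical to any of the others.

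How well a gene can be counted follows from this. Of the 90-base windows in the last 300 bases of the transcript, 100% were found in no other gene's transcripts for Defa24, 99.5% for Defa29, 83.9% for Defa27 and 69.7% for Defa35. The share was 13.3% for Defa3 and for Defa17, 0.474% for Defa5 and 0% for Defa34. Values of Defa3, Defa17, Defa5 and Defa34 are therefore uncertain as values of single genes, and those of Defa24, Defa29, Defa27 and Defa35 rest on sequence of their own.

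In PANETH cells Defa24 was the leading alpha-defensin of every library, at 274132, 226252, 244771 and 192509 CPM. WT libraries averaged 250192 CPM ± 33856 (SD, n = 2) and APC-KO libraries 218640 ± 36955 (SD, n = 2), and the libraries overlapped. All 22 Defa genes together made up 46.1%, 41.8%, 42.9% and 31.9% of the UMIs of PANETH cells. Defa17 had 18459, 21671, 6951 and 18620 CPM, with APC-KO replicate 2 between the WT libraries. Defa3 had 3059, 2604, 6470 and 2514 CPM, with APC-KO replicate 1 above and replicate 2 below both WT libraries. None of these 3 abundant genes separated the genotypes.

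Defa35, Defa27 and Defa29 were the members for which both APC-KO libraries lay above both WT libraries in PANETH cells. Defa35 had 33.2, 15.9, 2857 and 10924 CPM, from 49, 33, 517 and 20153 UMIs. WT libraries averaged 24.6 CPM ± 12.2 (SD, n = 2), and APC-KO replicates 1 and 2 were 116 and 445 times that mean. Defa27 was close to absent in WT, with 0, 2.90, 260 and 2816 CPM, from 0, 6, 47 and 5195 UMIs. A count of 0 in WT replicate 1 allows up to 2.03 CPM. Defa29 had 5097, 3335, 19677 and 25139 CPM, a mean of 4216 ± 1246 (SD, n = 2) for WT and of 22408 ± 3863 (SD, n = 2) for APC-KO. Within these 3 genes, both APC-KO libraries were high and APC-KO replicate 2 was the highest. Of 3030 genes with a mean of at least 20 CPM in PANETH cells, 53.9% had both APC-KO libraries above both WT libraries and 2.44% had them below. The rule used this contrast, so nothing is read from the count of 3 of 8 members above and 0 below.

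Defa5 and Defa34, the near copies of Defa35, did not separate the genotypes. Defa5 had 1379, 473, 868 and 1670 CPM and Defa34 had 468, 88.4, 44.2 and 293 CPM. The 8 Defa34 UMIs of APC-KO replicate 1 carry a 95% exact Poisson interval of 19.1 to 87.1 CPM, for counting error only. For both genes the WT libraries lay farther apart than the means of the genotypes. The 8 were grouped under the name of alpha-defensins that prevail in APC-KO Paneth cells. Defa3, Defa5, Defa17, Defa24 and Defa34 did not have both APC-KO libraries above WT in PANETH cells. For Defa27, Defa29 and Defa35 the name is a description only, as the values include the library that chose them. Both APC-KO libraries were also above WT in 53.9% of the 3030 genes.

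**Figure D2:**
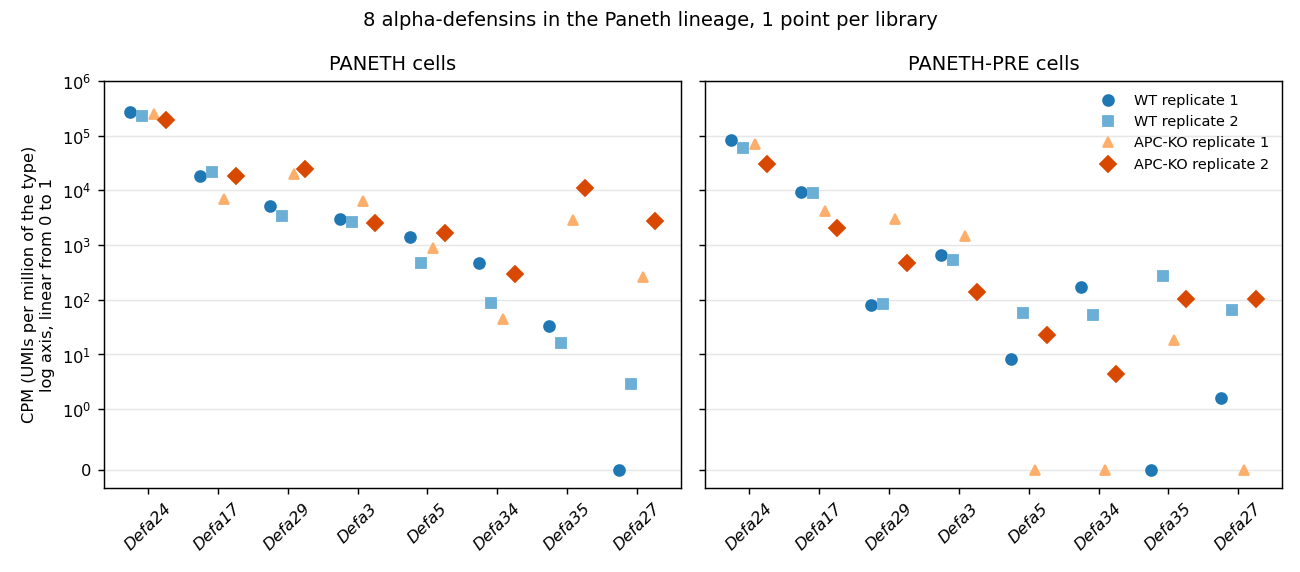
CPM (log axis, linear from 0 to 1) of the 8 genes in PANETH cells (left) and PANETH-PRE cells (right), 1 point per library, WT in blue and APC-KO in orange. In PANETH cells the orange points stand clear of the blue ones for Defa29, Defa35 and Defa27 alone, while Defa24 runs from 192509 to 274132 CPM over the 4 libraries.

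Among the other 14 Defa genes some were lower in APC-KO and the rest did not separate, which the choice of members in part fixes. In PANETH cells 5 of the 14 had both APC-KO libraries below both WT libraries (Defa20, Defa21, Defa22, Defa26 and Defa30), 0 had them above, and 2 (Defa25 and Defa37) had 0 UMIs in all 4 libraries. The 6 with the highest WT level in the Paneth lineage were Defa30, Defa36, Defa23, Defa26, Defa22 and Defa21. Defa30 had 137846, 155837, 134349 and 64052 CPM in PANETH cells. Defa36 had 7628, 2058, 7437 and 102 CPM, and Defa23 had 3456, 1992, 3509 and 6.50 CPM. For both genes APC-KO replicate 1 was near the WT libraries and replicate 2 far below all 3. Defa26 had 2596, 2115, 652 and 108 CPM, Defa22 had 3970, 551, 127 and 49.3, and Defa21 had 3029, 632, 470 and 87.8. For these 3 genes APC-KO replicate 1 lay between WT and APC-KO replicate 2.

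**Figure D3:**
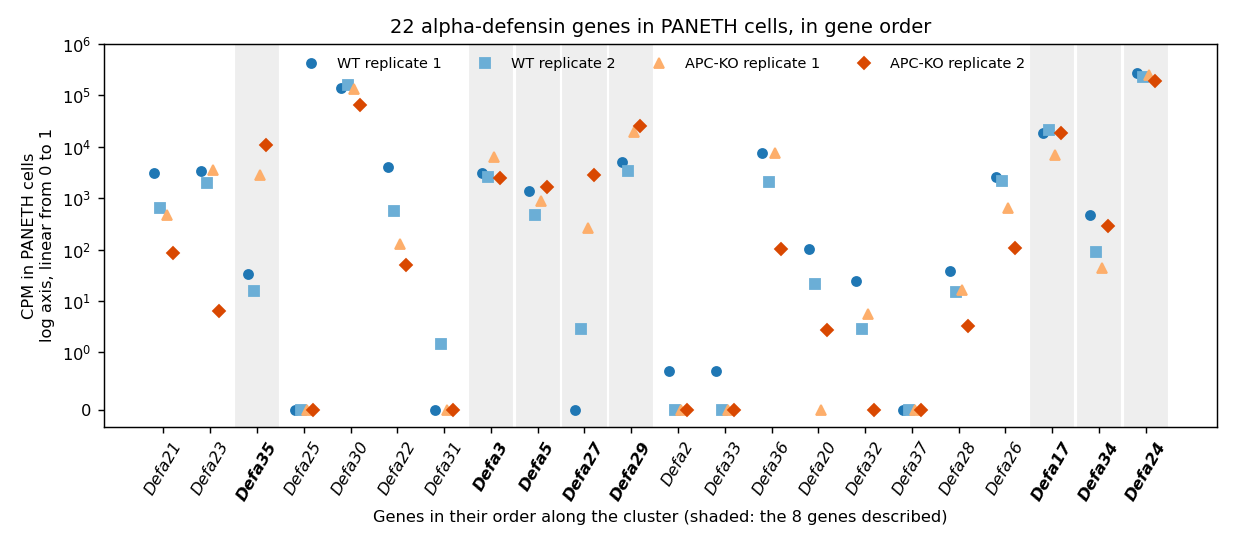
CPM in PANETH cells (log axis, linear from 0 to 1) of the 22 alpha-defensin genes in their order along chromosome 8, 1 point per library, with the 8 genes described shaded and in bold. Defa35, the third gene, is at 445 times the WT mean in APC-KO replicate 2, while Defa21 and Defa23, the genes before it, are below WT there.

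In APC-KO replicate 2 neighbouring genes differed in direction within a short distance. Defa23 and Defa35 are adjacent, and in APC-KO replicate 2 they stood at 0.00239 and 445 times the WT mean of PANETH cells. Defa35 and Defa36, which are 98.9% identical over the coding sequence, stood at 445 and 0.0210 times. In APC-KO replicate 1 Defa23 and Defa36 stood at 1.29 and 1.54 times, so neither was lower there. For Defa23 and Defa36, 0% of the 90-base stretches in the last 300 bases of the transcript were found in no other gene. Their values are therefore uncertain as values of single genes. Only Defa35 of the 8 has an entry in the RefSeq promoter table used here. Its upstream sequence is shown beside that of Defa36 because their levels in APC-KO replicate 2 differed in opposite directions from WT. Each line gives the 250 bases before the RefSeq start, plus strand, GRCm38.p6, with the motif ATCAAAG in capitals. The windows are chr8:21064788-21065037 for Defa35 and chr8:21427178-21427427 for Defa36.
Defa35: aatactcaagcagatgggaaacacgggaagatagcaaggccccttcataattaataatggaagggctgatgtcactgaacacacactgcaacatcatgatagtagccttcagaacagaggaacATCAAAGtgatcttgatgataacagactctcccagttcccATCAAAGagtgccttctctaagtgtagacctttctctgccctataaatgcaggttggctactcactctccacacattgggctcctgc
Defa36: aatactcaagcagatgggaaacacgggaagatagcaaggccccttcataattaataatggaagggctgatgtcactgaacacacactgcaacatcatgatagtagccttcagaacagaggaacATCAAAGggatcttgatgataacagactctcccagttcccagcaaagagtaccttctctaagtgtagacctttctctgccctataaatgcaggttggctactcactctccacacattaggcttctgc
The windows differed at 5 of 250 bases. ATCAAAG, a core of the TCF/LEF motif, was searched on both strands (CTTTGAT on the other) and found at 127 and 87 bases before the start of Defa35, and at 127 bases for Defa36. It was present in 13 of 16 alpha-defensin promoters in the table and in 1053 of 32851 promoters of all genes (3.205%), and at least 2 matches stood in 9 of the 16 and in 0.0822% of all. Defa20, Defa21, Defa22 and Defa23, all lower than WT in APC-KO replicate 2, also have 2 matches each. A relation between matches and levels was not tested. A match describes these letters and is no binding site.

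The contrast of sets was then followed in single cells, with genes chosen after their levels were seen. Defa35 and Defa27 were on 1 side, and Defa21, Defa22, Defa23, Defa26 and Defa36 on the other. Defa29 and Defa30, abundant in PANETH cells of every library, were in neither set. The choice of the 7 genes in part fixed the split between WT and APC-KO replicate 2, so that split supports nothing. Cells of 1 library are no replicates of a genotype. Among PANETH and PANETH-PRE cells with at least 10 UMIs of these 7 genes, all 118 cells of WT replicate 1 had under 10% of them from Defa35 and Defa27, with a highest value of 3.85%. In WT replicate 2 this held for 205 of 206 cells. In APC-KO replicate 2, 229 of 230 cells had over 90%, with a median of 99.2%. APC-KO replicate 1 had 7 such cells, and 6 of them lay between 10% and 90%, with a median of 16.7% over the 7. At least 5 UMIs of each set were found together in 4 cells of APC-KO replicate 1, in 22 of APC-KO replicate 2 and in 0 cells of either WT library. In APC-KO replicate 2, 1 of the 22 cells held 284 UMIs of Defa21, Defa22, Defa23, Defa26 and Defa36 in sum, and the next highest held 14. The part of shared reads and free RNA in the low counts of APC-KO replicate 2 was not tested, so they do not show that a cell made both sets. In the 4 cells of APC-KO replicate 1, Defa35 and Defa27 summed to 30, 150, 141 and 228 UMIs. The other set summed to 154, 255, 558 and 1215. These barcodes held 12182, 24727, 37192 and 52913 UMIs in all. Whether such a barcode held more than 1 cell was not tested, so these counts do not show it either. A share between 10% and 90% was seen in 6 of 7 cells of APC-KO replicate 1 and in 1 of 230 cells of APC-KO replicate 2.

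**Figure D4:**
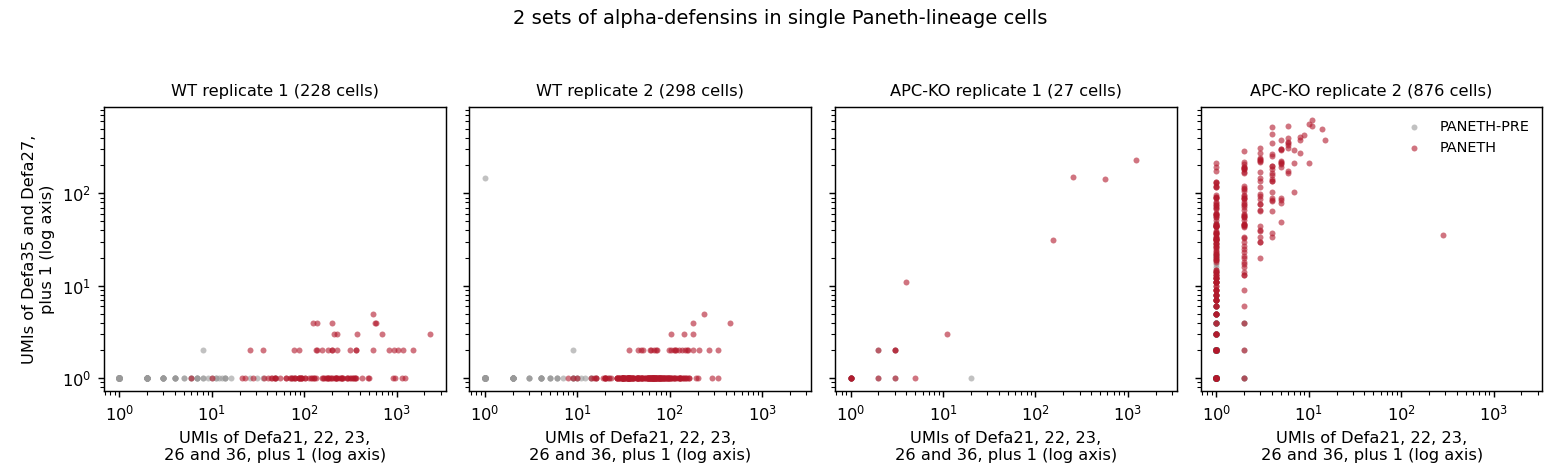
UMIs plus 1 (log axes) per Paneth-lineage cell, with Defa21, 22, 23, 26 and 36 on the horizontal and Defa35 and Defa27 on the vertical axis, 1 panel per library, PANETH cells in red and PANETH-PRE cells in grey. WT cells lie along the horizontal axis and cells of APC-KO replicate 2 along the vertical axis, with 1 exception each in WT replicate 2 and APC-KO replicate 2, and the few filled cells of APC-KO replicate 1 lie between.

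A single cell in WT replicate 2 and another in APC-KO replicate 2 stood apart from the other cells of their library. In WT replicate 2, 1 PANETH-PRE cell of 7852 UMIs held 117 of the 117 Defa35 UMIs and 27 of the 28 Defa27 UMIs of that type, with 0 UMIs of Defa21, Defa22, Defa23, Defa26 and Defa36. Its barcode had 0 UMIs in WT replicate 1, 7 in APC-KO replicate 1 and 3 in APC-KO replicate 2. In APC-KO replicate 2, 1 PANETH cell of 7829 UMIs held 161 of the 162 Defa21 UMIs and 87 of the 91 Defa22 UMIs of that type, together with 33 UMIs of Defa35 and 231 of Defa29, so that 10.7% of its UMIs of the 7 genes came from Defa35 and Defa27. The cell with the next most UMIs of the 5 genes in that library had 14, and the barcode had 2, 0 and 3 UMIs in the other libraries. How these cells came to hold such counts was not tested.

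APC-KO replicate 1 rests on few cells. Of its 16 PANETH cells, 10 had under 5% of their UMIs from the 22 Defa genes, while 0 of 306 WT PANETH cells did. The 4 cells richest in the 8 genes held 94.7% of their UMIs, including 99.2% of Defa35, 94.0% of Defa29 and 76.6% of Defa27. In APC-KO replicate 2, 17 of 274 PANETH cells were under 5%. Shares of PANETH cells with at least 1 Defa35 UMI were 29.2% and 12.0% in WT, 8 of 16 cells in APC-KO replicate 1 and 89.1% in APC-KO replicate 2, and 5.66%, 2.00%, 31.2% and 84.3% after each cell was thinned to 2000 UMIs, with no cell left out. In EC cells, which carry enteroendocrine markers and do not make Paneth granules, 0 of 387, 0 of 270 and 0 of 45 cells had a Defa35 UMI in the first 3 libraries and 15.1% of 311 in APC-KO replicate 2. The counts of 0 allow shares of up to 0.949%, 1.36% and 7.87% (95% exact binomial). Median depths were 12644, 10372, 3552 and 5954 UMIs in PANETH cells and between 2413 and 6426 in EC cells.

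Within PANETH cells of APC-KO replicate 2 the members made up varying parts of the alpha-defensin UMIs. Across 269 cells with at least 10 such UMIs, Defa24 took a median of 62.3% (quartiles 56.8% and 73.2%), Defa17 6.94%, Defa29 5.69%, Defa35 2.55%, Defa27 0.843%, Defa3 0.761%, Defa5 0.386% and Defa34 0.0253%. Cells richer in alpha-defensins had more Defa35, Defa5, Defa29 and Defa34 within them. Spearman's rho of the share with the alpha-defensin part of the cell's UMIs was 0.44, 0.38, 0.37 and 0.33 for these. It was -0.49 for Defa24, -0.30 for Defa17, 0.16 for Defa3 and -0.05 for Defa27. Defa30, outside the 8, had 0.58, above all members. These are descriptions across cells of 1 library, and shares of 1 total are tied to each other.

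Levels of the members were then compared between PANETH-PRE and PANETH cells. PANETH-PRE is a type with the markers of both lineages: goblet markers summed to between 53770 and 106171 CPM and Paneth markers to between 8897 and 44109 CPM in it. This is not particular to PANETH-PRE. In PANETH cells Spink4 had 22851, 12749, 16400 and 46114 CPM, and Tff3 had 3168, 1929, 6973 and 11257. Zg16 had 863, 811, 1641 and 10540 CPM there, whereas Agr2 was highest in APC-KO replicate 1 (1359, 1360, 2680 and 1956). The part of these goblet markers in the members' values was not tested. From PANETH-PRE to PANETH cells, Defa24 was 3.34, 3.79, 3.50 and 6.31 times higher and Defa17 2.01, 2.45, 1.69 and 9.03 times. Defa3 was 4.60, 4.88, 4.45 and 17.9 times higher. Defa29 was 64.1, 39.4, 6.45 and 52.4 times higher, and Defa30, for comparison, 61.3, 48.4, 51.8 and 44.3 times. Defa5 was 170, 8.27 and 72.1 times and Defa34 2.75, 1.68 and 66.4 times higher in WT replicate 1, WT replicate 2 and APC-KO replicate 2, while both had 0 UMIs in PANETH-PRE cells of APC-KO replicate 1. Defa35 was 153 and 107 times higher in APC-KO replicates 1 and 2, the former from 2 UMIs in PANETH-PRE cells, and Defa27 was 27.8 times higher in APC-KO replicate 2. In WT both genes had at most 1 UMI in a stage or rested on the PANETH-PRE cell described above. For Defa34, Defa17, Defa3 and Defa24 the ratio was thus higher in APC-KO replicate 2 than in either WT library. The Defa34 ratio of APC-KO replicate 2 rests on 12 UMIs in PANETH-PRE cells. The ratios give no order of appearance. The 8 genes held 96.7%, 94.7%, 96.5% and 95.8% of the alpha-defensin UMIs of PANETH-PRE cells, mostly as Defa24 and Defa17.

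To see what held without the library that chose the members, PANETH and PANETH-PRE cells of WT replicates 1 and 2 were compared with APC-KO replicate 1 alone. Of 8 tested members 3 rose and 1 fell, where 1.33% of 8526 genes were called, 1.03% higher and 0.293% lower. Defa35 had 23.4, 59.8 and 1801 CPM and a log2 fold change of 5.19 (edgeR's quasi-likelihood test with Benjamini-Hochberg adjustment, SE 0.34, adjusted p 1.47e-17). Defa27 had 0.478, 13.6 and 163 CPM and a log2 fold change of 4.19 (edgeR, SE 0.44, adjusted p 3.84e-10). Defa29 had 3620, 2769 and 13492 CPM and a log2 fold change of 1.84 (edgeR, SE 0.42, adjusted p 0.00863). Defa34 had 381, 82.2 and 27.8 CPM and fell by 3.29 on the log2 scale (edgeR, SE 0.59, adjusted p 2.55e-04), from 8 UMIs in APC-KO replicate 1.

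The 4 other members did not pass: Defa3 had a log2 fold change of 0.77 (adjusted p 0.425, edgeR), Defa24 -0.44, Defa5 -0.57 and Defa17 -1.81 (adjusted p 0.0929, edgeR). The median over the 8 was 0.16, beside -0.09 over all genes tested. Of the other Defa genes 9 were tested, and 4 fell (Defa20, Defa21, Defa22 and Defa26) and 0 rose. With 1 APC-KO library the test assumes that it varies like the WT pair. After thinning to 2000 UMIs Defa35 alone kept its call (log2 fold change 3.91, adjusted p 0.0159, edgeR), Defa27 was not tested, Defa34 did not pass and Defa29 had 0.67 (adjusted p 0.501). By DESeq2 Defa27 and Defa34 did not pass and Defa17 did. In the same fit 4 of 5 tested enterocyte markers rose (Fabp1, Fabp2, Apoa1 and Apoa4), Fabp1 from 21.0 and 16.4 CPM to 285, and their part in the members' values was not tested. Fewer mature Paneth cells in the sum and less RNA per cell cannot be told apart here.

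The rule did not use PANETH-PRE cells, but those of APC-KO replicate 2 come from the library that chose the members and are not independent of it. In PANETH-PRE cells 1 member rose and 1 fell of 8 tested, where 1.53% of 5568 genes were called, 0.772% higher and 0.754% lower. Defa29 had 79.5, 84.7, 3050 and 479 CPM, both APC-KO libraries above both WT libraries, with a log2 fold change of 4.49 (edgeR, SE 0.57, adjusted p 7.67e-06). In APC-KO replicate 1 a single cell held 318 of its 327 UMIs, and with that library left out the change was 2.41 and did not pass (adjusted p 0.0825, edgeR). Defa34 had 170, 52.6, 0 and 4.41 CPM and fell by 4.87 on the log2 scale (edgeR, SE 0.52, adjusted p 5.18e-07). Its fall did not pass without WT replicate 1 (adjusted p 0.141) or without APC-KO replicate 1 (adjusted p 0.184). The 0 UMIs of APC-KO replicate 1 allow up to 28.0 CPM.

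Defa24 had 82144, 59653, 69941 and 30490 CPM in PANETH-PRE cells, with a log2 fold change of -0.44 (adjusted p 0.838, edgeR). Defa17 had 9192, 8838, 4123 and 2061 CPM, both APC-KO libraries below WT, and -1.49 (edgeR, SE 0.42, adjusted p 0.0671), short of the threshold. It passed by DESeq2 (adjusted p 0.0196), with no filter beyond 1 count in edgeR (0.0103) and after thinning (0.000572), and did not pass with any 1 library left out (0.161 to 0.461). Defa3 had 666, 533, 1455 and 140 CPM, with the APC-KO libraries on either side of WT. Defa35 had 0, 268, 18.7 and 103 CPM, where the WT value of 268 is the 1 cell described above, and Defa27 had 1.62, 64.1, 0 and 101. Defa5 had 8.12, 57.2, 0 and 23.2 CPM. Of the other Defa genes 4 were tested and 3 fell: Defa23, Defa26 and Defa36.

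Other changes in PANETH-PRE cells ran beside these. Of 16 tested genes of Paneth granules, a list chosen with earlier results known, 7 fell and 0 rose, with a median log2 fold change of -0.90, beside 0.01 over all genes. Lyz1, the lysozyme of Paneth granules, had 12039, 16942, 4179 and 2072 CPM. Ang4, an antimicrobial ribonuclease, had 2519, 3301, 1147 and 383 CPM, and Mptx2, a pentraxin, 506, 1540, 37.3 and 26.5. Mptx1, another pentraxin, had 287, 398, 187 and 4.78 CPM. Nupr1, Habp2 and Pnliprp2 also fell. Itln1, a lectin, had 19136, 16674, 14850 and 3724 CPM and did not pass. Of 7 tested goblet markers 2 rose (Clca1 and Zg16) and 0 fell, with 5 positive and 2 negative log2 fold changes and a median of 0.69. Agr2 had 9093, 8923, 8507 and 5152 CPM and Muc2 4086, 2864, 2929 and 3447. Of 5 tested stem markers Olfm4 alone rose. Zg16 stood at 695, 533, 1063 and 6837 CPM. Olfm4 had 102, 57.2, 28.0 and 508 CPM, with APC-KO replicate 1 below WT. The part of these differences in makeup in the members' values was not tested.

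Genes around the peptides were then read in the whole Paneth lineage (PANETH and PANETH-PRE, 4 libraries), where 0.663% of 8599 genes were called, 0.244% higher and 0.419% lower. Of 17 tested granule genes 2 fell and 0 rose: Pnliprp2, a lipase-related protein, had 840, 1307, 229 and 248 CPM and fell by 2.69 on the log2 scale (edgeR, SE 0.37, adjusted p 0.0106), and Tesc, a calcium-binding protein, had 15.8, 35.9, 17.4 and 0.657 CPM (adjusted p 0.0303, edgeR). Neither passed without WT replicate 1 (adjusted p 0.152 and 0.491) or without WT replicate 2 (adjusted p 0.826 and 0.999), and 11 of the list passed without APC-KO replicate 1. The 4 with the highest mean level were Itln1 (43357, 68030, 27660 and 13023 CPM), Lyz1 (29022, 35342, 13197 and 12134), Ang4 (10313, 12456, 7575 and 2870) and Mptx2 (7522, 11160, 5420 and 1988). None of these 4 passed. In the same fit all 8 goblet markers had positive log2 fold changes with a median of 1.10 and none passed, and PANETH-PRE cells were 122 of 228, 98 of 298, 11 of 27 and 602 of 876 lineage cells. The part of this makeup in the granule genes was not tested. Of the 15 genes around alpha-defensin processing and control, 13 were tested and 0 passed. Mmp7, the activating protease, had 4619, 6012, 3328 and 3605 CPM, and Pdia6, a disulfide isomerase, 449, 370, 403 and 438. Sox9, a Wnt-dependent factor that Paneth cells need, had 190, 174, 243 and 196 CPM. Tcf7l2, the TCF factor of the intestine, had 78.9, 69.0, 101 and 126 CPM and a log2 fold change of 0.05.

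Genes most like the members were sought over 39 sums of a library and a cell type with at least 20 cells, by Pearson's r of log2(CPM + 1) with the mean of the 8, among 6038 genes with a mean of at least 20 CPM. The 6 without a Defa symbol were Gm15292 (r 0.89), which RefSeq names as an alpha-defensin too, Lyz1 (0.85), Itln1 (0.82), Pnliprp2 (0.82), Clps (0.77) and Mmp7 (0.75). Of the members themselves Defa5 was closest (0.94), then Defa29 (0.93) and Defa24 (0.92), and Defa27 was farthest (0.76). Each member is itself part of the mean of the 8, so its r is raised by construction. The sums of a library share its depth and its free RNA, so the values are descriptions.

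Outside the Paneth lineage the members were at low levels in all 10 other types. Their summed level there ran from 1064 to 4598, from 1381 to 5255, from 208 to 6402 and from 1669 to 12125 CPM in the 4 libraries, against between 254443 and 302629 CPM in PANETH cells. Defa24 made up most of it, at 3043, 2777, 3295 and 4811 CPM over all cells outside the lineage. Defa29 stood at 10.1, 15.4, 14.3 and 123 CPM, Defa35 at 0.0886, 0.649, 3.31 and 48.1 CPM, and Defa27 at 0, 0.108, 0.367 and 16.4 CPM. For all 3 APC-KO replicate 2 was far above the rest. By edgeR 0 of the 7 tested members and 0.0% of 13237 genes passed, with 468 genes at an unadjusted p under 0.05 and 17 genes called by DESeq2. Defa35 had a log2 fold change of 6.34 (edgeR, SE 1.43, adjusted p 1.00). Without APC-KO replicate 1, 4 members passed, but that fit sets WT against the 1 library that chose the members and supports nothing.

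In GOBLET cells 1 member rose of 4 tested, where 0.0837% of 5974 genes were called, 0.0335% higher and 0.0502% lower. Defa29 had 13.6, 14.9, 44.1 and 172 CPM, from 11, 21, 9 and 169 UMIs, and a log2 fold change of 3.02 (edgeR, SE 0.47, adjusted p 0.0334), and 1.35 with no call once APC-KO replicate 2 was left out. A single cell held 40 of the 169 UMIs. The GOBLET cells of APC-KO replicate 2 come from the library that chose the members, so the call of Defa29 is not independent of that choice. Shares of GOBLET cells with a Defa29 UMI were 6.13%, 7.04%, 14.3% and 34.0%, and 3.88%, 7.04%, 11.1% and 19.6% in EC cells. Median depths were between 3624 and 6906 UMIs in GOBLET cells. Defa35 had 0, 0, 0 and 49 UMIs in GOBLET cells and Defa27 had 0, 0, 0 and 21. All of these came from the library that chose the members, and APC-KO replicate 1 had none. In EC cells of APC-KO replicate 2 Defa35 had 57 UMIs and 64.9 CPM. Defa35 per 1000 Defa24 UMIs in that library was 56.7 in PANETH, 3.36 in PANETH-PRE, 10.7 in GOBLET, 23.9 in EC and 35.3 in ISC cells, and 35.4 in barcodes with 1 to 50 UMIs. The part of free RNA in these values was not tested.

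Barcodes with 1 to 50 UMIs, which hold no kept cell, were read under the working name free RNA. They held 1106937, 1348066, 1872673 and 1310008 UMIs in 768839, 770948, 1244480 and 762198 barcodes. Whether their RNA came from the cells of the same library was not tested. By edgeR 0 of the 8 members and 0.0% of 9015 genes passed, with 413 at an unadjusted p under 0.05 and 31 called by DESeq2. The count of 0 members was not stable: 2 passed when either WT library was left out, 4 when either APC-KO library was left out, and Defa29 passed by DESeq2 (adjusted p 0.0165). Defa35 stood at 54.2, 59.3, 93.4 and 567 CPM, Defa27 at 4.52, 5.93, 8.54 and 147, and Defa29 at 316, 454, 590 and 1146. In these 3 of the 8 members both APC-KO libraries were above both WT libraries, as in 7.14% of 5586 genes, and in Defa3 and Defa24 both were below, as in 27.6%. Defa24 was at 16994, 23884, 7787 and 16007 CPM. Values of Defa35 in WT barcodes were higher than in WT PANETH cells (33.2 and 15.9 CPM). Likewise Defa21 had 372 CPM in barcodes of APC-KO replicate 2, against 87.8 in its PANETH cells. In barcodes with 51 to 100 UMIs these values were 1.46 and 26.2 CPM for WT Defa35 and 8.30 CPM for Defa21. There 3 of the 8 members had both APC-KO libraries above WT and 2 below, where 16.7% and 15.5% of 4890 genes did. What sets the 2 ranges of barcodes apart was not tested.

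The share of alpha-defensin UMIs held by the 8 genes sums up these patterns. In PANETH cells it was 65.6%, 60.9%, 65.8% and 79.8%, where the rule used the last value. Outside the Paneth lineage it was 86.2%, 80.0%, 95.3% and 93.4%, a difference of 11.2 percentage points between means of 83.1% ± 4.34 (SD, n = 2) and 94.4% ± 1.35 (SD, n = 2), with no overlap (two-sided exact permutation test, p = 0.333, the smallest that 2 libraries against 2 can give). The share of APC-KO replicate 2 outside the lineage comes from the library that chose the members and is not independent of that choice. In APC-KO replicate 1, GOBLET-PRE cells held 8358 of the 9273 member UMIs outside the lineage. That library was also above both WT libraries in GP, SEC-PRO, EEC-PRE, ENTERO-PRO and TUFT cells. Its shares there rest on 307, 64, 54, 18 and 11 member UMIs. In EC, ISC, GOBLET and NON-EC cells it was not above both. The shares were 74.4%, 68.7%, 68.3% and 88.9% in EC cells and 80.1%, 66.7%, 72.1% and 85.5% in ISC cells. They were 83.4%, 77.5%, 77.5% and 93.0% in GOBLET cells and 73.5%, 64.9%, 70.5% and 86.3% in NON-EC cells. The median over the 10 types was 77.3%, 72.6%, 76.8% and 90.9%, so the separation did not hold by this measure. In PANETH-PRE cells the difference was 0.454 points (exact permutation p = 1), but 7.74 with the other alpha-defensin symbols and AY761184 in the denominator, -3.10 without Defa24 and -0.537 without WT replicate 2. In barcodes with 1 to 50 UMIs the shares were 70.3%, 65.0%, 69.2% and 79.4% (exact permutation p = 0.667). Without Defa24 the shares in PANETH cells were 15.2%, 14.7%, 20.2% and 49.0%.

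**Figure D5:**
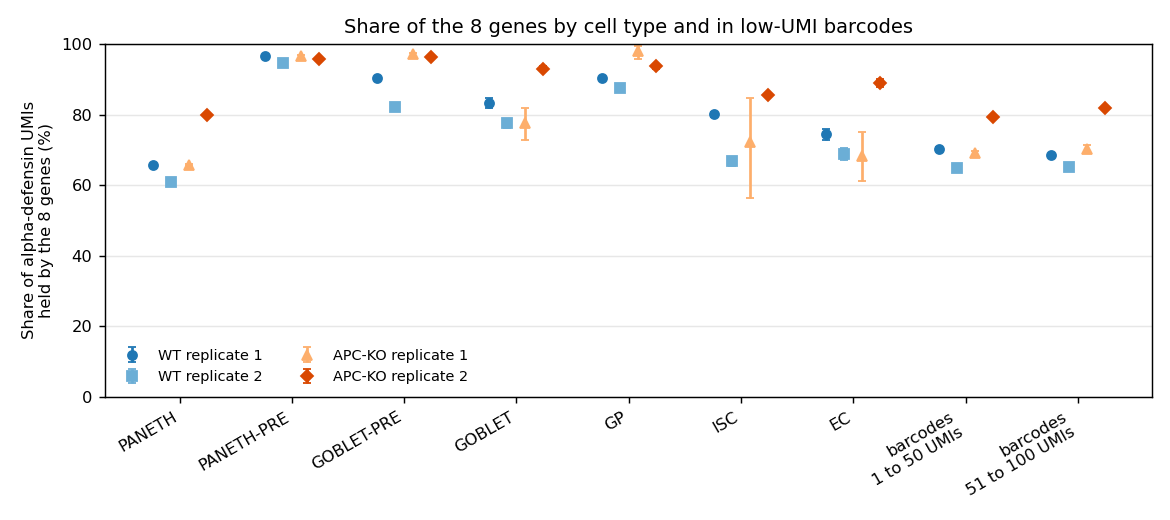
Share of alpha-defensin UMIs held by the 8 genes (percent) in 7 of the cell types and in 2 ranges of low-UMI barcodes, 1 point per library with 95% exact binomial intervals for counting error only. APC-KO replicate 2 lies highest in PANETH cells at 79.8% and in both barcode ranges, while PANETH-PRE cells lie between 94.7% and 96.7% in all libraries.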

How the data were processed

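Gene by barcode matrices deposited by the authors hold unfiltered UMI counts. They were made with Cell Ranger 3.0.2 and STAR on mm10, per the submitters' processing notes. The deposited per-cell tables give kept cells with their UMI and gene counts, the mitochondrial percent and a cell type name, printed as given; how cells were filtered and named, and how doublets were treated, is not given in the sources used here.

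UMIs were summed per library and cell type and divided by the sum's total to give CPM. Sums were compared with edgeR 4.0.16 (TMM, filterByExpr, quasi-likelihood test, Benjamini-Hochberg at 0.05 over all genes) in R 4.3.3. Shares were compared with the two-sided exact permutation test in scipy 1.17.1. Alternatives were the size factors and the Wald test of DESeq2 1.42.0, a filter at 1 count, a block for replicate number, leaving out libraries in turn, thinning to 2000 UMIs per cell, other barcode ranges, scaling without alpha-defensins and another denominator of shares. Leaving out 1 WT cell, leaving out Defa24 and a crossed block were chosen after seeing the data. On simulated data with log2 changes of 2, edgeR called 153 of 187 changed genes in PANETH-PRE, 152 of 187 in GOBLET and 153 of 186 in the Paneth lineage. It called 180 of 194 outside the lineage and 175 of 190 in free RNA, and all directions were right. In the real data 0 genes passed in the last 2, with Defa35 at log2 fold changes of 6.34 and 2.55. The simulated counts therefore give no measure of what the real fits could detect.

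The members, the lists and the tests were chosen with earlier results of these data known. Named are all 8 members, the 6 other Defa genes highest in WT, the 4 highest genes of the granule and control lists with all that passed, and the 6 genes most like the members. Sequences came from GENCODE vM21 transcripts and RefSeq promoters, both GRCm38, matched by gene ID or symbol.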

Additional observations from a re-analysis of the deposited data

How the results depend on the processing

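The counts of members called were 2 in PANETH-PRE, 1 in GOBLET, 0 outside the lineage, 0 in free RNA and 4 in the lineage without APC-KO replicate 2. With no filter beyond 1 count they were 4, 3, 2 and 3 in the first 4, and 11 granule genes were called in place of 2. Leaving out 1 library gave 0 to 4 members in PANETH-PRE, 0 to 2 in GOBLET, 0 to 4 outside the lineage, 2 to 4 in free RNA and 0 to 11 granule genes; the extremes came without APC-KO replicate 1 (0 in PANETH-PRE, 4 outside the lineage and in free RNA, 11 granule genes), without WT replicate 1 (0 granule genes), without WT replicate 2 (4 in PANETH-PRE, 0 granule genes) and without APC-KO replicate 2 (0 in GOBLET). In free RNA the DESeq2 Wald test called 1 member and the replicate block 2. Thinning to 2000 UMIs left 1 member in the lineage and gave 7 granule genes. The cause of these changes was not tested.

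The difference in the members' share changed as follows, in percentage points. Without Defa24 it was 19.6 in PANETH (9.54 with it), -3.10 in PANETH-PRE (0.454), 20.1 outside the lineage (11.2) and 13.8 in free RNA (6.65). In PANETH-PRE it was 7.74 with all Defa symbols and AY761184 in the denominator and 2.41 as a mean over cells, which gave 15.6 outside the lineage. Leaving out 1 library gave 2.53 to 16.5 in PANETH, -0.537 to 1.45 in PANETH-PRE, 8.17 to 14.3 outside the lineage and 1.54 to 11.8 in free RNA.

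Of 344 values of single genes under an alternative, 272 kept direction and side of the threshold, 35 passed it newly, 13 no longer passed it and 24 changed sign. Sign changes by setting were, on the log2 scale: with the replicate block Defa3 in PANETH-PRE -0.39, Defa17 and Defa24 in GOBLET -0.16 and -0.29 and Defa34 outside the lineage 0.0311; after thinning Defa3 in PANETH-PRE -1.60 and in the lineage without APC-KO replicate 2 -0.48, Defa35 in PANETH-PRE 0.75 and Defa34 outside the lineage 0.68; and by DESeq2 Defa17 in GOBLET -0.0282. Leaving out 1 library changed the sign of Defa3 (-2.24 to 1.40), Defa5 (-6.49 to 1.09), Defa24 (-1.37 to 0.10), Defa27 (-6.44 to 5.30) and Defa35 (-2.51 to 9.56) in PANETH-PRE, of Defa17 (-2.06 to 0.74) and Defa24 (-1.39 to 0.76) in GOBLET, of Defa5 (-1.73 to 1.80), Defa17 (-1.51 to 0.38) and Defa34 (-6.87 to 0.80) outside the lineage, and of Defa3 (-0.61 to 0.12) and Defa5 (-0.12 to 0.69) in free RNA.

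Same-numbered libraries share only a number: their deviations correlated at 0.030 in PANETH-PRE, -0.018 in GOBLET, -0.266 outside the lineage, -0.104 in free RNA and 0.012 in the lineage. The replicate block moved the count of genes called from 85 to 67, from 5 to 73, from 0 to 0, from 0 to 25 and from 57 to 125 in the same order. Counts of all genes called also differed from edgeR's in these cases: PANETH-PRE 18 by DESeq2, 161 without the filter, 55 thinned and 3 to 45 with 1 library left out; GOBLET 79 without the filter and 0 to 20; outside the lineage 17, 24 without the filter and 0 to 233; free RNA 31, 123 without the filter and 6 to 731; the lineage 477 without the filter and 0 to 461; and, for 113 in the lineage without APC-KO replicate 2, 15 by DESeq2 (where an adjusted p of NA counts as not called) and 13 thinned. A crossed replicate block called 1 gene outside the lineage and 20 in free RNA, with 2 members among the latter. The 11 PANETH-PRE and 16 PANETH cells of APC-KO replicate 1 limit every comparison.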
